A study of Mus musculus with 1504 samples.

Results

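Integrin and cadherin genes were followed across single cells of the adult mouse lung vasculature. The 49 genes are the rows of the deposited count matrix whose symbol is Itga or Itgb followed by a subunit name, or Cdh followed by a number. They make up 49 of 21947 genes and comprise 18 integrin alpha subunits, 8 integrin beta subunits and 23 cadherins. The 1504 cells came from lungs of C57BL/6 mice, aged 12 to 15 weeks in the sample labels and 10 to 19 weeks in the series' design. Of these cells, 769 came from Cldn5(BAC)eGFP mice, whose reporter is driven by sequence of the endothelial tight junction gene Cldn5. Another 361 came from Pdgfrb(BAC)eGFP/NG2dsRed mice and 374 from Pdgfrb(BAC)eGFP mice, whose reporters are driven by genes of mural cells that other mesenchymal cells may also use. All mice carried a reporter transgene, and none was labelled as treated. Cells were sorted into 384-well plates and sequenced by SMART-seq2, a full-length method without molecular identifiers. The matrix has 6 sets of columns. EC1, EC2 and EC3 hold 243, 275 and 251 cells, together as many as the Cldn5(BAC)eGFP labels. Mural1 and Mural2 hold 128 and 233 cells, together as many as the double-reporter labels, and Mural3 holds 374. The column names do not give the reporter or the animal, so each set is a single sample, nothing was tested, and no p-value is given.

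Integrins are heterodimers of an alpha and a beta subunit that anchor a cell to its matrix, and the pair decides the ligand. Alpha1, alpha2, alpha10 and alpha11 make collagen receptors and alpha3, alpha6 and alpha7 laminin receptors, while alpha5, alpha8 and alphav read the RGD sequence of fibronectin, nephronectin and other proteins. Cadherins join like cells to each other through calcium-dependent contacts that catenins link to actin. VE-cadherin holds endothelial junctions together, and N-cadherin is known to join endothelium to pericytes.

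The cells were clustered without the 49 genes and without a further set of genes kept out for the comparisons, and clusters were named by marker lists. General capillary-like (663 cells), aerocyte-like (73) and lymphatic-like (22) cells came from the EC sets, save for 3 Mural1 cells. Pericyte-like (68) and smooth muscle-like (68) cells came from Mural1 and Mural2, save for 1 Mural3 cell. Fibroblast-like cells (394) fell in clusters 2, 4, 8 and 10, and 310 of the 374 Mural3 cells were among them. A chondrocyte- or perichondrial-like cluster (43 cells) held 39 cells of Mural1. The names rest on these marker lists, so the lists' levels describe the classes and are no test of them: the 11 endothelial markers summed to 24940 CPM in general capillary-like and 344 CPM in fibroblast-like cells. A cluster of 173 cells stayed unnamed, because the share of markers read per cell passed the limit set for the epithelial and leukocyte lists. That share was 73.1% for the epithelial and 51.2% for the leukocyte list. The cluster held 55311 CPM of Sftpc, a marker of the epithelial list, and 14752 CPM of Lyz2, a marker of the leukocyte list. It took 1.82% of the EC sets, 26.6% of Mural1 and Mural2 together and 16.8% of Mural3. Cells had 100229 to 609242 reads, with a median of 240178. Levels are in CPM, a gene's reads per 1e6 reads of all genes, pooled over the cells of each class. Shares of cells with a read are after thinning each cell to 50000 reads. Intervals are 95% and cover counting error alone, since reads without identifiers are not independent molecules.

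Of the 49 genes, 23 reached 50 CPM in a named class or cluster. They were 12 alpha subunits, 3 beta subunits and 8 cadherins. Another 10 peaked between 10 and 50 CPM, and 16 stayed under 10 CPM in every named class. The 16 were 11 cadherins (Cdh7, Cdh8, Cdh9, Cdh10, Cdh12, Cdh15, Cdh16, Cdh17, Cdh18, Cdh20 and Cdh26), the alpha subunits Itgad, Itgae, Itgam and Itgax, and Itgb6. Their highest levels ran from 0.098 to 9.34 CPM. Of the 23 genes at 50 CPM, 8 peaked in smooth muscle-like cells, 4 in chondrocyte- or perichondrial-like cells, 3 each in pericyte-like and aerocyte-like cells, 2 each in general capillary-like and lymphatic-like cells and 1 in fibroblast-like cluster 8. Reads of Cdh8, Itga4, Itga7, Itga8 and Itgad are uncertain, because their exons overlap another gene of the table and the strand of counting is not given in the sources used here.

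**Figure D1:**
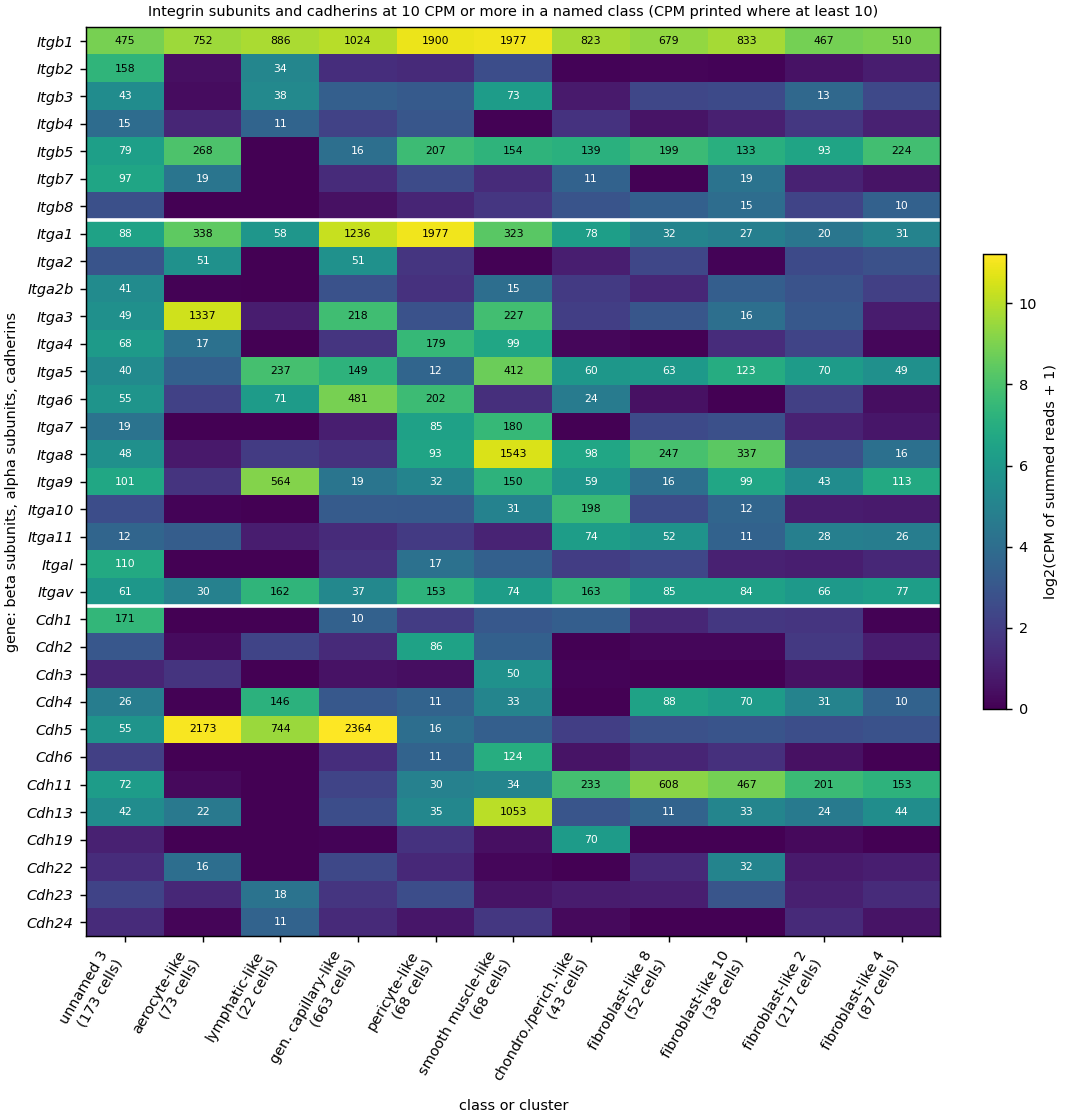
Level of the 33 integrin and cadherin genes that reached 10 CPM in a named class (rows) in the unnamed cluster, the named classes and the 4 fibroblast-like clusters (columns); colour is log2(CPM + 1) and CPM is printed where it reached 10. Cdh5 fills the 3 endothelial columns at 744 to 2364 CPM, while Itga8 and Cdh13 stand out in the smooth muscle-like column at 1543 and 1053 CPM.

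A difference between classes was called when the higher side had at least 50 CPM, at least 25% of its cells held a read, and the levels differed at least 4-fold. Between aerocyte-like and general capillary-like cells, 4 of the 49 genes were called, 2 higher and 2 lower, where 0.83% of all genes compared were called (0.493% higher and 0.338% lower). Between lymphatic-like and general capillary-like cells 5 were called, 2 higher and 3 lower, against 2.94% of all genes (1.7% higher and 1.24% lower), and the general capillary-like cells serve both comparisons. Between pericyte-like and smooth muscle-like cells 10 were called, 3 higher and 7 lower, against 4.17% of all genes (1.96% higher and 2.21% lower). Between mural-like (pericyte- and smooth muscle-like) and fibroblast-like cells 9 were called, 8 higher and 1 lower, against 3.16% of all genes (1.93% higher and 1.22% lower). Endothelial-like cells differed from mural-like cells in 7 genes, where 4.24% of all genes were called. They differed from fibroblast-like cells in 5, 4 higher and 1 lower, where 4.54% were called (2.01% higher and 2.54% lower). For the 49 genes the share called was 18.4% between mural-like and fibroblast-like cells and 8.16% between aerocyte-like and general capillary-like cells. The median log2 difference of the 49 genes was 0.92 between mural-like and fibroblast-like cells, against 0.15 for all genes compared, and -0.14 between pericyte-like and smooth muscle-like cells, against 0.00 for all. It was -0.99 for aerocyte-like and -1.15 for lymphatic-like against general capillary-like cells, where the medians of all genes were -0.31 and -0.35. For endothelial-like cells it was -0.37 against mural-like cells (0.04 for all genes) and 0.58 against fibroblast-like cells (0.23 for all). These medians rest mostly on genes under the limits on level and share. Only 8 of the 49 genes reached those limits in each comparison with general capillary-like cells, and at most 15 in the others.

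The classes share column sets, which allows the calls to be read within a set that holds at least 5 cells of both sides. These sets are parts of the pooled reads on which the calls were made. Agreement between them is therefore partly built in and is no replication, and no share over all genes is given beside it. All 4 calls of the aerocyte-like cells were past 4-fold in the same direction in each of EC1, EC2 and EC3, and all 9 of mural-like against fibroblast-like cells in both Mural1 and Mural2. Of the 10 calls between pericyte-like and smooth muscle-like cells, 10 had the same direction in both sets and 9 were past 4-fold in both; the exception was Itga9 (log2 -1.31 in Mural1). Of the 5 calls of the lymphatic-like cells, 4 had the same direction in the 3 sets and 3 were past 4-fold in each; Itga6 was at log2 -1.05 in EC2, and Itgav was lower in EC1 (log2 -3.17) and higher in EC2 and EC3 (3.63 and 1.30).

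**Figure D2:**
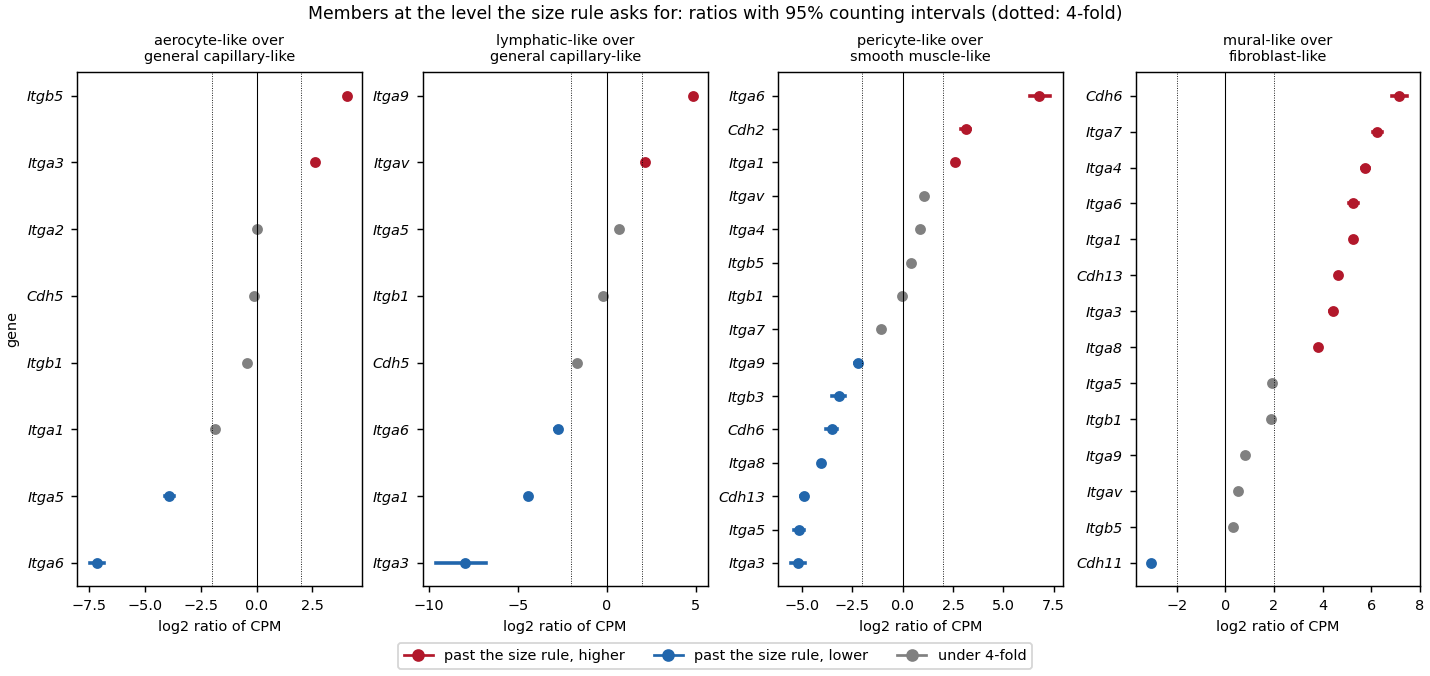
Log2 ratio of CPM (x axis) for each gene that reached the level (y axis) in aerocyte-like over general capillary-like, lymphatic-like over general capillary-like, pericyte-like over smooth muscle-like, and mural-like over fibroblast-like cells; bars are 95% counting intervals, dotted lines mark 4-fold, red is higher, blue lower and grey not called. Itgb1 lies within the dotted lines in the panels of aerocyte-like, lymphatic-like and pericyte-like cells, while Itga6 changes side, at 140-fold lower in aerocyte-like and 110-fold higher in pericyte-like cells.

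The bases just upstream of the start are shown for the 4 alpha subunits, the cadherin and the beta subunit with the widest difference between classes among genes with an entry in the RefSeq promoter table (31 of the 49). Each line gives the 250 bases before the RefSeq start, on the gene's strand, in build GRCm38.p6. For Itga3 the GENCODE gene starts 87 bases further upstream, so the last 87 bases of its window lie within that gene. Capitals mark GGGCGG (the GC box, on either strand, so also CCGCCC) and CCGGAAG (a core that ETS factors bind). Itga8 (chr2:12301945-12302194, minus strand) and Cdh6 (chr15:13173676-13173925, minus strand) were highest in smooth muscle-like cells, and Itga4 (chr2:79255176-79255425, plus strand) was highest in pericyte-like cells. Itga3 (chr11:95076715-95076964, minus strand) and Itgb5 (chr16:33829415-33829664, plus strand) were highest in aerocyte-like cells. Itga10 (chr3:96645334-96645583, plus strand) was highest in chondrocyte- or perichondrial-like cells.
Itga8: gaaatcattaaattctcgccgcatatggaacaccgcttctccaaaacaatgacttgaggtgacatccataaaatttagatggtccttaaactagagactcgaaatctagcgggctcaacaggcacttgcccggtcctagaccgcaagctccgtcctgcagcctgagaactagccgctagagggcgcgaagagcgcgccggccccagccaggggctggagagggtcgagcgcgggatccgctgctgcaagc
Cdh6: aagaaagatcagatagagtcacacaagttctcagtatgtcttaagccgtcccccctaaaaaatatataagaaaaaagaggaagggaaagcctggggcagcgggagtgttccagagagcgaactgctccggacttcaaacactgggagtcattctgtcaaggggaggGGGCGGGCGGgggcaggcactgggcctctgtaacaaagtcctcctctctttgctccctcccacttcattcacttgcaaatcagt
Itga4: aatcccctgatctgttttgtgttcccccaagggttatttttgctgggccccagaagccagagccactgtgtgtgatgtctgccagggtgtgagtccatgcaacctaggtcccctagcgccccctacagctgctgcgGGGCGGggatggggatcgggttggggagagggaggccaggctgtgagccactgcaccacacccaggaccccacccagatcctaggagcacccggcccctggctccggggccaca
Itga3: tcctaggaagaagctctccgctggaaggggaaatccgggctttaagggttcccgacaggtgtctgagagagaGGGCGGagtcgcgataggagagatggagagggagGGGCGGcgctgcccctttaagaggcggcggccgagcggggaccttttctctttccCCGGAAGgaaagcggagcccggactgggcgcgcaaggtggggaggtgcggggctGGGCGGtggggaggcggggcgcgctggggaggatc
Itgb5: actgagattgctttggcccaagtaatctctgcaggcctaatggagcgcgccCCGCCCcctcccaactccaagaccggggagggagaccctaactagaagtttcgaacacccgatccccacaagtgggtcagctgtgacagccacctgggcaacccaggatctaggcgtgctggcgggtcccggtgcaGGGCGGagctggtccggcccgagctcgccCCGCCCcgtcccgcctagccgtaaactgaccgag
Itga10: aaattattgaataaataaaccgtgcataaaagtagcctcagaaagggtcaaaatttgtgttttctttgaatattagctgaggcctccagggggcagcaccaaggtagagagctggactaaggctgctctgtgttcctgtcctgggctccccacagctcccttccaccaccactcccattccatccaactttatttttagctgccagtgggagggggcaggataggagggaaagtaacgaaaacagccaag
The 2 genes of the aerocyte-like cells shared the GC box, with 3 matches each, and Itga3 alone of the 6 held CCGGAAG. The 2 matches in Cdh6 overlap, Itga4 had 1, and Itga8 and Itga10 had none. The GC box stands in 32.74% of 32851 windows of all genes and in 11 of the 31 members' windows, and CCGGAAG in 6.91% of all windows and 1 of 31. The TATA box TATAAA, the AP-1 motif TGANTCA and the CArG box, which serum response factor binds in smooth muscle genes, were in none of the 6, and stand in 12.37%, 6.75% and 1.47% of all windows. The Itga3 window was 67.6% G and C and the Itgb5 window 65.2%, against a median of 52.4% for all windows, while that of Itga10 was 48.0%. A match is a description of these letters and not a bound site.

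Among the beta subunits, Itgb1, the partner of most alpha chains, was read in every class and was called in none of the comparisons between classes. Its level was 1900 CPM in pericyte-like cells and 1977 CPM in smooth muscle-like cells, a ratio of 0.961. In pericyte-like cells it was 1767 CPM in Mural1 and 1998 CPM in Mural2, and in smooth muscle-like cells 2463 and 1806 CPM, so the sets within a class lay further apart than the classes. It was 752 CPM in aerocyte-like, 886 in lymphatic-like and 1024 CPM in general capillary-like cells. Between 81.8% and 100% of the cells of each named class held a read of it.

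Itgb5, which pairs with alphav, was the beta subunit that set the aerocyte-like cells apart from the other endothelial-like classes. Its level was 348, 223 and 260 CPM in the aerocyte-like cells of EC1, EC2 and EC3, and 16.1 CPM in general capillary-like cells. That is 16.6-fold higher (interval 15.8 to 17.5), or 38.8-fold without EC2, and 60.3% against 3.02% of cells held a read (65.8% and 4.07% without thinning). No read of Itgb5 was found in the 22 lymphatic-like cells, where the interval of a share of 0 reaches up to 15.4%. Outside the endothelium Itgb5 was 207 CPM in pericyte-like and 154 CPM in smooth muscle-like cells, 1.34-fold apart, and 224 CPM in fibroblast-like cluster 4. Itgav was 29.8 CPM in aerocyte-like cells, and 7 of these 73 cells held reads of both Itgav and Itgb5. Itgb3, the vitronectin receptor chain, was 8.11 CPM in pericyte-like and 73.3 CPM in smooth muscle-like cells, 9.04-fold lower (interval 7.35 to 11.2). In smooth muscle-like cells it was 88.3 CPM in Mural1 and 68.9 CPM in Mural2. Itgb8, a chain that with alphav activates TGF-beta, peaked at 15.0 CPM in fibroblast-like cluster 10. Itgb4, the chain of hemidesmosomes, peaked at 11.1 CPM in lymphatic-like cells, among named classes.

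The collagen receptor chain Itga1 marked pericyte-like and general capillary-like cells. It was 1934 and 2009 CPM in the pericyte-like cells of Mural1 and Mural2, and 270 and 349 CPM in their smooth muscle-like cells. The pericyte-like level was 6.12-fold higher (interval 5.95 to 6.29), and the sets did not overlap. Read with Itgb1 in the same cell, it was found in 66 of 68 pericyte-like cells. In general capillary-like cells it was 1142, 1466 and 1070 CPM in EC1, EC2 and EC3. Lymphatic-like cells had 58.5 CPM, 21.1-fold lower (interval 19.0 to 23.6) than general capillary-like cells. Aerocyte-like cells had 338 CPM, 3.65-fold lower and so not called, though without EC3 they were 5.04-fold lower and called. Endothelial-like cells had 1061 CPM of Itga1 and mural-like cells 948 CPM, 42.8-fold and 38.2-fold above the 24.8 CPM of fibroblast-like cells.

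Among the other collagen receptor chains, Itga10, known from cartilage, was 198 CPM in chondrocyte- or perichondrial-like cells and 2.32 CPM in fibroblast-like cells, 85.3-fold higher (interval 76.0 to 95.8), with reads in 90.7% against 4.57% of cells (95.3% and 8.38% without thinning). That comparison was added after values were seen, and 2 of the 49 genes were called in it, where 2.52% of all genes were. Smooth muscle-like cells came next, with 30.7 CPM of Itga10 and reads in 33.8% of cells (57.4% without thinning). Itga10 and Itgb1 were read together in 38 of 43 cells of that cluster. Itga11, a receptor of fibrillar collagen known from fibroblasts, peaked at 73.6 CPM in the same cluster and was 29.1 CPM in fibroblast-like cells, ranging from 10.5 CPM in cluster 10 to 52.3 CPM in cluster 8. Itga2, known from platelets and epithelium, was 50.5 CPM both in aerocyte-like and in general capillary-like cells. Its sets differed: 12.5, 102 and 38.4 CPM in the aerocyte-like cells of EC1, EC2 and EC3, against 67.7, 60.2 and 22.2 CPM in general capillary-like cells.

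The laminin receptor chains Itga3 and Itga6 divided the endothelium. Itga3 was 1794, 1640 and 977 CPM in the aerocyte-like cells of EC1, EC2 and EC3, and 207, 252 and 177 CPM in their general capillary-like cells. Every aerocyte-like set lay above every general capillary-like set, and the pooled level was 6.13-fold higher (interval 6.03 to 6.23). Itga6 ran the other way, with 3.44 CPM in aerocyte-like and 481 CPM in general capillary-like cells, 140-fold lower (interval 112 to 176). By set it was 0.396, 1.53 and 5.79 CPM in aerocyte-like cells, and 471, 444 and 525 CPM in general capillary-like cells. Without EC3 the difference was 446-fold, and by the mean of the deposited scores 65.3-fold. A read of Itga3 was found in 95.9% of aerocyte-like and 39.7% of general capillary-like cells, and of Itga6 in 5.48% and 57.0% of them. Without thinning these shares were 95.9% and 45.7% for Itga3, and 13.7% and 65.0% for Itga6. Lymphatic-like cells held 5 reads of Itga3, 0.855 CPM against 218 CPM in general capillary-like cells, 255-fold lower (interval 109 to 786). Their Itga6 level was 70.6 CPM, 6.81-fold lower, and lay at 38.5, 215 and 0 CPM in EC1, EC2 and EC3. Over fibroblast-like cells, endothelial-like cells had 374 against 6.73 CPM of Itga3, 55.6-fold higher, with 22.8-fold without Mural3, 89.4-fold without Mural2 and 121-fold without doublet-like wells. Their Itga6 was 396 against 2.03 CPM, 195-fold higher, or 1295-fold without Mural3.

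The same pair divided the mural cells. Itga6 was 202 CPM in pericyte-like cells (218 in Mural1 and 191 in Mural2) and 1.84 CPM in smooth muscle-like cells, 110-fold higher (interval 79.1 to 157) and 70.1-fold by the deposited scores. Itga3 was 6.17 CPM in pericyte-like and 227 CPM in smooth muscle-like cells, 36.9-fold lower (interval 29.3 to 47.1), or 23.6-fold without Mural1. In smooth muscle-like cells it was 281 CPM in Mural1 and 211 CPM in Mural2. Itga7, the laminin receptor chain known from muscle, was read in both mural classes, at 85.4 CPM in pericyte-like and 180 CPM in smooth muscle-like cells, which was not called. It was 0 CPM in aerocyte-like and lymphatic-like cells and 0.922 CPM in general capillary-like cells. Endothelial-like cells as a whole had 0.754 CPM of Itga7 against 144 CPM in mural-like cells, 192-fold lower, and 396 against 77.6 CPM of Itga6, 5.11-fold higher, though without Mural2 Itga6 was not called (log2 1.93). Over fibroblast-like cells, mural-like cells had 144 against 1.90 CPM of Itga7, 75.9-fold higher, or 130-fold without Mural3. Their Itga6 was 77.6 against 2.03 CPM, 38.2-fold higher, or 256-fold without Mural3, and their Itga3 was 144 against 6.73 CPM, 21.4-fold higher, with 8.85-fold without Mural3, 33.9-fold without Mural2 and 43.8-fold without doublet-like wells.

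**Figure D3:**
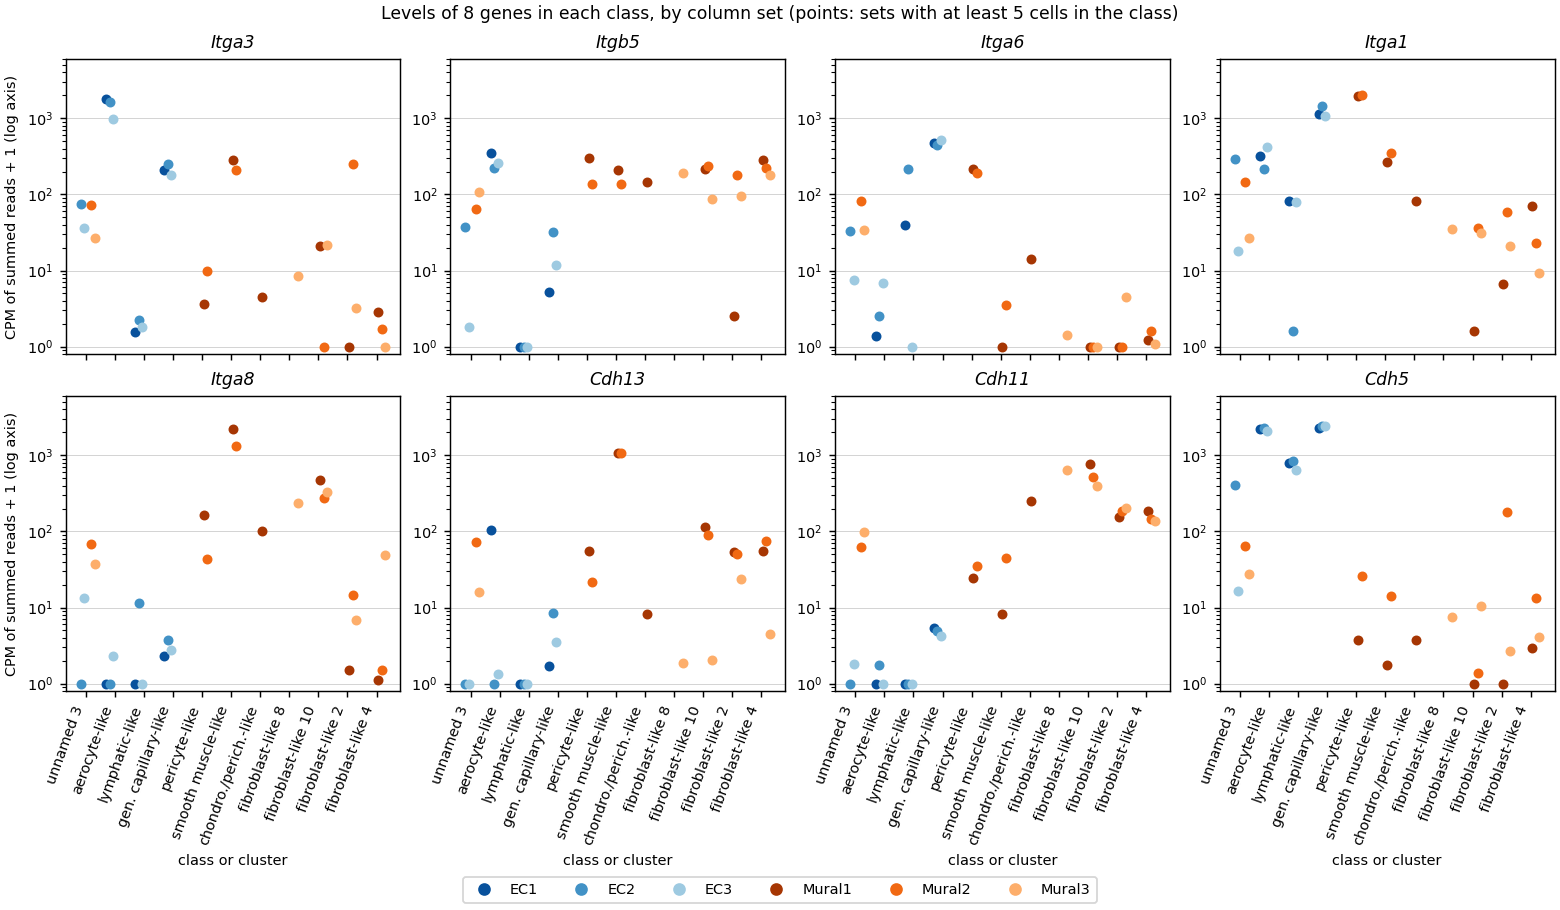
Level (CPM + 1, log axis) of 8 integrin and cadherin genes in each class, with a point for each column set that holds at least 5 cells of the class. The aerocyte-like points of Itga3 (977 to 1794 CPM) and Itgb5 (223 to 348 CPM) lie above the general capillary-like points, and those of Itga6 (0.396 to 5.79 CPM) lie below them.

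Among the RGD receptor chains, Itga8 was highest in smooth muscle-like cells. It was 163 and 41.9 CPM in the pericyte-like cells of Mural1 and Mural2, and 2196 and 1325 CPM in their smooth muscle-like cells. The pericyte-like level was 16.5-fold lower (interval 15.6 to 17.6), or 31.1-fold without Mural1. Endothelial-like cells had 1.84 CPM against 996 CPM in mural-like cells, 542-fold lower. Mural-like cells, at 996 CPM, were 14.0-fold above fibroblast-like cells, which had 71.1 CPM. Fibroblast-like cells were not alike in it: clusters 8 and 10 together had 283 CPM and clusters 2 and 4 had 8.75 CPM, 32.4-fold higher (interval 30.3 to 34.7), with reads in 60.0% against 3.95% of cells (64.4% and 7.24% without thinning). That comparison was also added after values were seen. Itga8 was the 1 gene of the 49 called in it, where 0.602% of all genes were. In cluster 10 it was 476, 271 and 330 CPM in Mural1, Mural2 and Mural3. Clusters 8 and 10 also had 1046 and 1826 CPM of Hhip, a gene known from alveolar myofibroblasts, against 143 and 163 CPM in clusters 2 and 4. Hhip is 1 of 8 myofibroblast markers, and the list as a whole set cluster 8 less apart. Its share read per cell was 25.2% in cluster 8 and 45.4% in cluster 10, against 19.2% and 21.3% in clusters 2 and 4. In cluster 8, 2 of the 8 were at 0. Cluster 10 had 1117 CPM of the 10 smooth muscle markers summed, where clusters 2, 4 and 8 had 179 to 262 CPM. The part of these markers in the result was not tested. Npnt, which encodes the alpha8beta1 ligand nephronectin, was 481 CPM in cluster 10, 50.6 CPM in cluster 8, 519 CPM in pericyte-like cells and 476 CPM in smooth muscle-like cells, against 8.10 CPM in general capillary-like cells.

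Itga5, the fibronectin receptor chain, was 11.7 CPM in pericyte-like and 412 CPM in smooth muscle-like cells, 35.3-fold lower (interval 29.9 to 42.1), or 103-fold without Mural1. It was read with Itga8 in 54 of 68 smooth muscle-like cells. In aerocyte-like cells it was 0, 0 and 19.6 CPM in EC1, EC2 and EC3, against 149 CPM in general capillary-like cells over all sets. The aerocyte-like level was 14.9-fold lower (interval 13.1 to 17.1), or 626-fold without EC3. Lymphatic-like cells had 50.2, 94.3 and 465 CPM in the same sets and were not called. Itgav was 162 CPM in lymphatic-like and 36.6 CPM in general capillary-like cells, 4.43-fold higher (interval 4.13 to 4.75). Most of that level lay in EC2, since the lymphatic-like cells had 4.47, 491 and 63.1 CPM in EC1, EC2 and EC3. With TMM scaling or the deposited scores the log2 difference was 1.94 or 1.999, just under the 4-fold limit, and Itgav was not called. Itgav was 153 CPM in pericyte-like, 163 CPM in chondrocyte- or perichondrial-like and 74.0 CPM in smooth muscle-like cells. Itga2b, the platelet fibrinogen receptor chain, peaked at 15.4 CPM in smooth muscle-like cells among named classes and was 41.3 CPM in the unnamed cluster, where 8 platelet markers summed to 362 CPM.

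Itga9, a receptor chain for tenascin and other ligands that is known to be needed for lymphatic valves, marked the lymphatic-like cells. It was 547, 575 and 571 CPM in the lymphatic-like cells of EC1, EC2 and EC3, against 19.4 CPM in general capillary-like cells. The level was 29.1-fold higher (interval 27.7 to 30.7), with reads in 63.6% against 5.28% of cells (68.2% and 7.24% without thinning), and the 3 sets lay close together. In pericyte-like cells Itga9 was 71.2 CPM in Mural1 and 3.22 CPM in Mural2, against 177 and 141 CPM in smooth muscle-like cells. It was 4.69-fold lower in pericyte-like cells, or 43.5-fold without Mural1. Among fibroblast-like clusters it was highest in cluster 4, at 155, 93.4 and 99.7 CPM in Mural1, Mural2 and Mural3. The related Itga4, which binds VCAM-1 and fibronectin, was a mural chain here. It was 286 and 101 CPM in the pericyte-like cells of Mural1 and Mural2, and 158 and 78.4 CPM in their smooth muscle-like cells. Endothelial-like cells had 4.40 CPM of Itga4 and mural-like cells 129 CPM, 29.4-fold lower, with 19.2-fold without Mural1, 49.1-fold without Mural2 and 44.9-fold without EC2. Mural-like cells were 54.1-fold above fibroblast-like cells, which had 2.39 CPM, with 32.4-fold without Mural1, 85.0-fold without Mural2 and 174-fold without Mural3.

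The endothelial cadherin Cdh5 (VE-cadherin) was read in nearly every endothelial-like cell. It was 2244, 2301 and 2073 CPM in the aerocyte-like cells of EC1, EC2 and EC3, and 2275, 2394 and 2434 CPM in their general capillary-like cells, so the classes lay close by set and were not called. Lymphatic-like cells had 782, 853 and 645 CPM, all below the other endothelial sets, but 3.18-fold lower was not called. Endothelial-like cells had 2277 CPM against 11.9 CPM in mural-like cells, 191-fold higher, or 1327-fold without Mural2. Against the 5.72 CPM of fibroblast-like cells the endothelial-like level was 398-fold higher, with 145-fold without Mural3, 772-fold without Mural2 and 1385-fold without doublet-like wells. The share of cells with a read was 99.5% of endothelial-like and 3.81% of fibroblast-like cells, or 99.7% and 6.09% without thinning. Cdh2 (N-cadherin) was 86.2 CPM in pericyte-like and 9.83 CPM in smooth muscle-like cells, 8.77-fold higher (interval 7.51 to 10.3), with reads in 50.0% against 5.88% of cells (63.2% and 10.3% without thinning). It was 96.9 CPM in Mural1 and 78.4 CPM in Mural2 within the pericyte-like cells, and under 4 CPM in the endothelial-like classes.

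Smooth muscle-like cells carried other cadherins. Cdh13 (T-cadherin), which is held in the membrane by a lipid anchor and lacks the catenin-binding tail, was 35.1 CPM in pericyte-like and 1053 CPM in smooth muscle-like cells, 30.0-fold lower (interval 27.2 to 33.2), or 50.4-fold without Mural1. Endothelial-like cells had 7.54 CPM against 668 CPM in mural-like cells, 88.6-fold lower. Mural-like cells had 668 CPM against 27.2 CPM in fibroblast-like cells, 24.6-fold higher, or 9.36-fold without Mural3. In smooth muscle-like cells it was 1067 CPM in Mural1 and 1056 CPM in Mural2, and 63 of 68 cells held reads of both Cdh13 and Itga8. Cdh6 (K-cadherin), known from kidney, was 10.7 CPM in pericyte-like and 124 CPM in smooth muscle-like cells, 11.5-fold lower (interval 9.66 to 13.9), or 7.50-fold without Mural1. Its smooth muscle-like level was 81.4 CPM in Mural1 and 142 CPM in Mural2. Mural-like cells had 81.2 CPM of Cdh6 against 0.572 CPM in fibroblast-like cells, 142-fold higher, with 802-fold without Mural3. Endothelial-like cells had 1.43 CPM, 56.9-fold lower than mural-like cells, or 212-fold without EC2. Without Mural2 the level fell under the limits, and neither difference was called (log2 6.00 over fibroblast-like cells and -4.83 for endothelial-like over mural-like cells). Cdh3 (P-cadherin) was 118 CPM in Mural1 and 25.8 CPM in Mural2 within smooth muscle-like cells, where 20.6% of cells held a read. It was under 3 CPM in every other named class.

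Cdh11, the cadherin known from fibroblasts and bone-forming cells, was 32.2 CPM in mural-like and 270 CPM in fibroblast-like cells, 8.39-fold lower, or 18.9-fold without Mural2. Endothelial-like cells had 3.18 CPM, 85.1-fold lower than fibroblast-like cells. The chondrocyte- or perichondrial-like cluster had 233 CPM. The fibroblast-like clusters differed: cluster 8 had 608 CPM, cluster 10 had 467, cluster 2 had 201 and cluster 4 had 153 CPM. Cdh4 (R-cadherin) followed at 87.5, 69.6, 31.1 and 10.5 CPM in the same clusters. Its 146 CPM in lymphatic-like cells came from 2 of 22 cells after thinning. Cdh19, known in mice from Schwann cell precursors, was 69.6 CPM in chondrocyte- or perichondrial-like cells and 0.133 CPM in fibroblast-like cells, 525-fold higher (interval 334 to 876), with 108-fold without Mural3 and 2955-fold without Mural2, and 25.6% against 0.254% of cells held a read, both with and without thinning. Of 8 Schwann cell markers, 4 were at 0 in that cluster and the list summed to 533 CPM, against 40.8 CPM in fibroblast-like cells; their part in the result was not tested. Cdh22, Cdh23 and Cdh24 peaked at 31.8 CPM in fibroblast-like cluster 10 and at 18.5 and 10.8 CPM in lymphatic-like cells.

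Scaled by exon length (RPKM), which allows genes to be set side by side, each class had a different mix. Itga3 made up 87.2% of the summed alpha subunit RPKM in aerocyte-like cells. In general capillary-like cells Itga1 made up 31.9%, Itga6 25.6% and Itga3 18.4%. Lymphatic-like cells had 49.2% Itga9 and 32.1% Itga5. Pericyte-like cells had 54.9% Itga1, and smooth muscle-like cells 50.1% Itga8 and 20.0% Itga5. The leading alpha chain also differed among the fibroblast-like clusters, with Itga5 at 37.4% in cluster 2, Itga9 at 33.8% in cluster 4, and Itga8 at 46.0% in cluster 8 and 44.4% in cluster 10. Itga10 led in the chondrocyte- or perichondrial-like cluster at 34.8%. Itgb1 led the beta subunits in every class, from 65.6% in fibroblast-like cluster 4 to 96.5% in general capillary-like cells among the named ones. Itgb5 came next in aerocyte-like cells at 28.3%, against 1.75% in general capillary-like cells. Cdh5 made up 98.3% of the cadherin RPKM in aerocyte-like and in general capillary-like cells and 86.7% in lymphatic-like cells. Cdh2 led in pericyte-like cells at 37.8%, Cdh13 in smooth muscle-like cells at 69.0% and Cdh11 in fibroblast-like cells at 70.9%. The totals behind these shares differ. Cadherin RPKM summed to 28.3 in pericyte-like, 136 in smooth muscle-like and 42.8 in fibroblast-like cells, against 572 in general capillary-like cells.

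**Figure D4:**
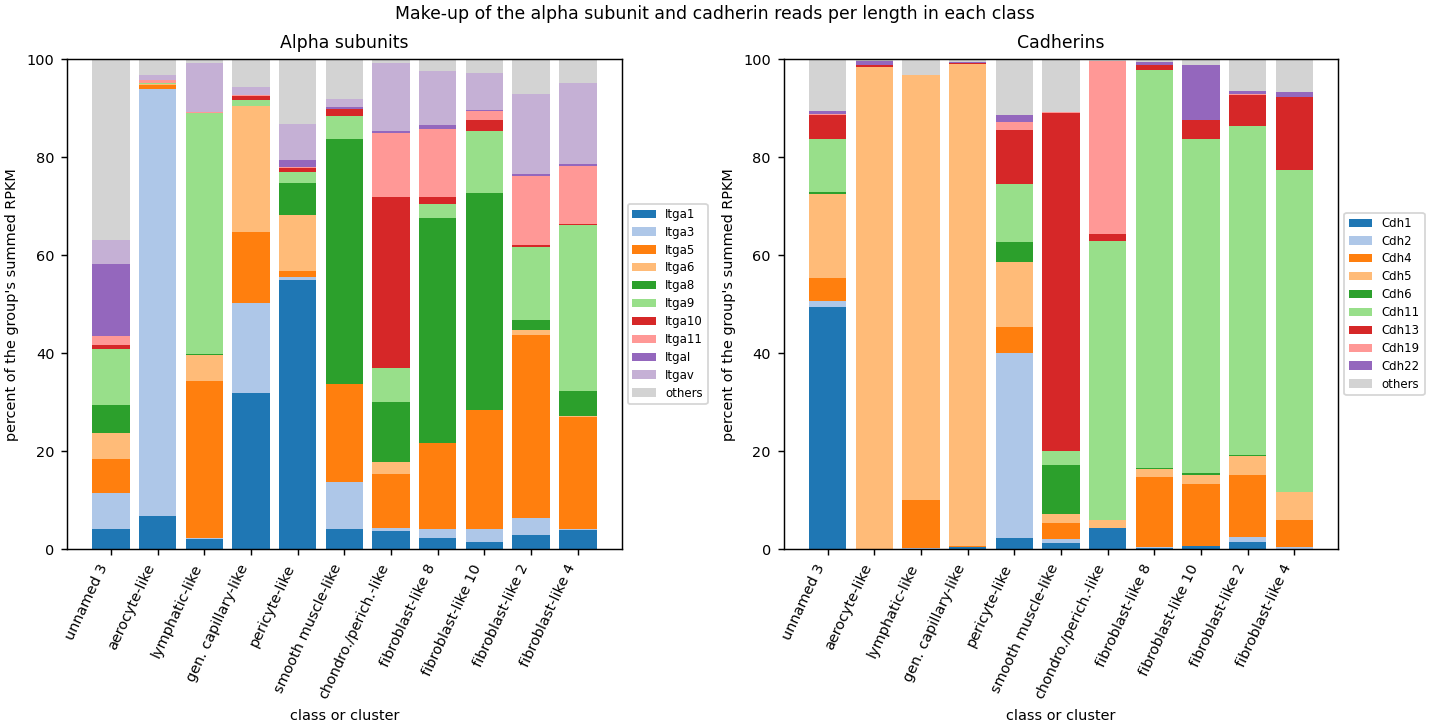
Percent of the summed RPKM of the integrin alpha subunits (one panel) and of the cadherins (the other) that each gene contributes in each class; bars stack to 100%. Itga3 fills 87.2% of the alpha subunit bar in aerocyte-like cells and Cdh5 98.3% of the cadherin bar, while Itga8 and Cdh13 fill 50.1% and 69.0% in smooth muscle-like cells.

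Cldn5-eGFP cells differed from Mural1 and Mural2 in 8 of the 49 genes, where 4.24% of all genes were called, and from Mural3 in 5, where 4.62% were; both comparisons use the EC sets. Itga3 was 358, 399 and 335 CPM in EC1, EC2 and EC3, against 60.7 CPM in Mural1, 83.7 CPM in Mural2 and 7.36 CPM in Mural3. Itga6 was 398, 378 and 381 CPM in the EC sets, against 53.3, 54.5 and 7.00 CPM in Mural1, Mural2 and Mural3. Itga1 was 999, 1257 and 866 CPM in the EC sets, against 353 and 371 CPM in Mural1 and Mural2 and 22.4 CPM in Mural3. It was called against Mural3 alone. Cdh5, Itga3 and Itga6 were higher in Cldn5-eGFP cells in both comparisons and Cdh11 lower in both. Itga8 (1.92 against 374 CPM), Cdh13, Itga7 and Itga4 were lower than in Mural1 and Mural2. Without the wells of the unnamed cluster, Itga4 and Itga7 were no longer called (log2 -3.63 and -6.34), and without Mural2 neither these (-2.84 and -5.49) nor Cdh13 (-4.79) were. Over Mural3, Cdh5 was 342-fold, Itga6 55.1-fold and Itga3 49.6-fold higher; without those wells these were 728-fold, 159-fold and 87.9-fold, and Cdh5 was 649-fold higher without doublet-like wells. Over Mural1 and Mural2, Cdh5 was 71.9-fold higher, or 150-fold without doublet-like wells. Against the same sets Itga4 was 6.43-fold lower, or 13.7-fold without EC2, and Cdh13 37.7-fold lower, or 61.8-fold without EC1. These levels pool every class a set holds, and 0 of the 769 cells of the EC sets but 68 of the 361 of Mural1 and Mural2 were pericyte-like.

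Fibroblast-like cells were found in both mural sorts, which allowed one class to be compared across them. Of the 49 genes, 0 were called at a 2-fold limit between the 84 fibroblast-like cells of Mural1 and Mural2 and the 310 of Mural3, where 0.848% of all genes were. Without Mural1, 2 were called, Cdh13 (5.28-fold higher) and Itgb5 (2.01-fold higher), and without Mural2 there was 1, Itga9 (2.17-fold higher). The 0.848% belongs to the comparison with both sets. The share of all genes called was 1.27% without Mural1 and 2.41% without Mural2. Cdh13 was 71.5 against 15.7 CPM, 4.54-fold higher (interval 4.26 to 4.84), and fell short only on the share of cells, with reads in 22.6% against 8.06%; without thinning it was called. Among the 6 genes past the limits on level and share, Itgb5 had the largest difference, with 228 CPM in Mural1 and Mural2 and 116 CPM in Mural3, 1.96-fold higher (interval 1.90 to 2.01). Itga9 was 92.0 against 51.2 CPM, 1.80-fold higher. Cdh11 was 235 against 279 CPM and Itgb1 616 against 518 CPM. The clusters that hold these cells differ, with cluster 2 almost wholly in Mural3 (206 of 217 cells).

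The unnamed cluster held integrins of leukocytes and the cadherin of epithelium. Of the 49 genes, 6 were higher and 2 lower than in the named clusters, where 1.38% of all genes were called (0.766% higher and 0.611% lower). Cdh1 (E-cadherin) was 171 CPM against 5.34 CPM, 32.0-fold higher, or 19.1-fold without Mural2, with reads in 70.5% against 2.55% of cells. Itgb2, the shared beta chain of leukocyte integrins, was 158 against 1.80 CPM, 87.8-fold higher, or 133-fold without doublet-like wells. Its partner Itgal was 110 against 2.64 CPM, and Itgam was 50.3 against 2.75 CPM, 18.3-fold higher, or 46.9-fold without EC1. Itgb7, a beta chain of lymphocytes, was 96.5 against 3.57 CPM, and Itga4 67.8 against 14.7 CPM, 4.63-fold higher, or 7.34-fold without Mural1. The call of Itga4 was lost without EC2 or EC3 (log2 1.79 and 1.97), and that of Itgam without EC2 or Mural2, without doublet-like wells or at a higher clustering resolution. Cdh5 (54.7 against 1052 CPM, 19.2-fold lower, or 33.2-fold without doublet-like wells) and Itga1 (88.0 against 587 CPM, or 15.7-fold lower without Mural2) were lower. Of the 1331 named cells, 758 were endothelial-like, while 14 of the 173 unnamed wells came from the EC sets. Cdh5 was 15.6 CPM in pericyte-like and 5.72 CPM in fibroblast-like cells, both below the unnamed cluster. Itga1 was above the unnamed cluster in pericyte-like cells (1977 CPM) and below it in fibroblast-like cells. The 10 leukocyte markers summed to 16472 CPM in the unnamed cluster, against 3.91 to 275 CPM in the named classes. Lyz2 alone made 14752 CPM of the 16472 CPM, and Ptprc was 254 CPM. The 8 alveolar type 2 markers summed to 78230 CPM in the same cluster. Of its 173 wells, 63 held markers of both endothelial and mesenchymal cells, against 15 of 1331 named ones. The part of these markers in the result was not tested. Among the named classes Itgb2 peaked at 34.0 CPM in lymphatic-like cells, Itgb7 at 19.3 CPM in aerocyte-like cells, Itgal at 17.3 CPM in pericyte-like cells and Cdh1 at 10.0 CPM in general capillary-like cells. Itgam, Itgax, Itgae, Itgb6 and Cdh16 were under 10 CPM in every named class but reached 17.4 to 50.3 CPM in the unnamed cluster.

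Genes that work with integrins and cadherins were taken from 5 lists, with 123 entries in all, and those not used for clustering were compared between classes. Jam2 stands both in the list of integrin ligands and in that of other adhesion receptors. Of 31 genes of the integrin adhesion complex, 10 were higher and 1 lower in mural-like than in fibroblast-like cells (1.93% and 1.22% of all genes), with a median log2 difference of 1.21 against 0.15 for all genes. The 10 included Actn1 (193 against 22.6 CPM), which encodes an actin cross-linker, and Fermt2 (822 against 137 CPM), which encodes the integrin activator kindlin-2. Between pericyte-like and smooth muscle-like cells 3 were higher and 3 lower, against 1.96% and 2.21% of all genes: the kinase genes Ptk2 (630 against 78.3 CPM) and Src (365 against 54.1 CPM) were higher, and Zyx (54.1 against 1114 CPM) lower. Of 30 integrin ligands outside collagens and laminins, 3 were higher and 5 lower in pericyte-like than in smooth muscle-like cells, against the same 1.96% and 2.21%. Vtn, which encodes vitronectin, was 715 against 0.461 CPM, and Thbs1, for thrombospondin 1, was 62.0 against 2188 CPM. Of 19 catenin and junction genes, 4 were higher and 0 lower in endothelial-like than in fibroblast-like cells, against 2.01% and 2.54% of all genes, among them Jup (688 against 40.4 CPM), for plakoglobin, and Ctnnd1 (623 against 76.3 CPM), for p120-catenin. In aerocyte-like against general capillary-like cells, 3 adhesion complex genes were higher and 1 was lower, against 0.493% and 0.338% of all genes; the lower one was Tns1 (11.4 against 305 CPM), for tensin 1. Of the 12 membrane partners of integrins, 2 were higher there and 0 lower, against the same 0.493% and 0.338%, and Emp2 was 4369 against 293 CPM. In lymphatic-like against general capillary-like cells, 6 ligand genes were higher and 3 lower, against 1.7% and 1.24% of all genes, and Fbln5, for fibulin 5, was 1025 against 9.26 CPM. Of 25 other adhesion receptors of the vessel wall, 4 were higher and 0 lower in pericyte-like than in smooth muscle-like cells (1.96% and 2.21% of all genes), among them the protocadherin gene Pcdh18 (1985 against 17.1 CPM) and Cadm1 (525 against 4.15 CPM), for a cell adhesion molecule of the immunoglobulin family. In mural-like against fibroblast-like cells 6 of the 25 were higher and 1 lower (1.93% and 1.22% of all genes), and Mcam, for CD146, was 1571 against 6.30 CPM. In aerocyte-like against general capillary-like cells 0 were higher and 1 was lower (0.493% and 0.338% of all genes), Cadm1 at 7.91 against 237 CPM. In lymphatic-like against general capillary-like cells 1 was higher and 4 were lower (1.7% and 1.24% of all genes).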

How the data were processed

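Single cells of mouse lung were sequenced by SMART-seq2 in 1504 wells, and the submitters' processing notes name STAR 2.4.2a and the mm10 build. How reads were assigned to genes, with which annotation, and how cells were filtered is not given in the sources used here. The deposited read counts per gene were used as they stand, and the row of the eGFP reporter (0.1678% of reads) was left out of totals. The deposited score table holds the same counts scaled by the authors to 500000 per cell and rounded to whole numbers, since each of its values lies within 0.5 of that product. It served as an alternative.

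Because the labels give no animal, plate or date, each population is 1 sample. Levels are CPM of summed reads with exact Poisson intervals, shares of cells have Clopper-Pearson intervals, and ratios have conditional binomial intervals, all at 95%. A side with under 3 reads was set to 3 reads for a fold. Cells were thinned to 50000 reads, and no cell was shallower. A difference was called at 50 CPM, 25% of cells, 4-fold (2-fold within the fibroblast-like class) and 20 cells a side. RPKM used the union of exons in GENCODE M21.

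Cells were clustered on 10985 genes with scanpy 1.11.5 (2000 variable genes, 30 principal components, 15 neighbours, Leiden resolution 1, seed 1). The other 10962 genes, which include the 49 members, were kept out and compared between classes, and populations were compared over all 21947 genes. The genes of the marker lists were among those used for clustering and were not kept out. Of 196 listed markers in 23 lists, 191 were measured. A cluster was named by the list with the largest share of its markers read per cell, if that reached 40%, and stayed unnamed where the epithelial or leukocyte list reached 50%. Doublets were not removed. Wells with at least 5 endothelial and 5 mesenchymal markers after thinning were called doublet-like and left out in an alternative. Scaling factors by TMM and by median ratios came from edgeR 4.0.16 in R 4.3.3. The calling rule was run on simulated reads with planted differences and no spread between sets or animals. That run concerns the rule and tests none of the calls.

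Values are given in full for members that were called or reached 10 CPM in a named class, and the others by range. The members and lists were chosen with earlier results of these data known.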

Additional observations from a re-analysis of the deposited data

How the results depend on the processing

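Across the 12 comparisons, 64 gene calls were made, and 55 of them were made again under every alternative run for them, while 9 fell out under some. Of 938 alternative values of these calls, 0 changed sign and 17 no longer met the limits. Alternatives that changed only the level limit, the share filter, the fold limit or the thinning left the log2 value as it was. Its sign could therefore not change there, and the looser limits among them could not drop a call. Of 170 counts under alternatives, 151 were within 1.5 times the reported count. With no filter on level or share, the counts were 20 and 17 for Cldn5-eGFP cells against Mural1 and Mural2 and against Mural3, 23 and 20 for endothelial-like against mural-like and fibroblast-like cells, 28 for mural-like against fibroblast-like cells, 27 for pericyte-like against smooth muscle-like cells, 32 and 25 for aerocyte-like and lymphatic-like against general capillary-like cells, 23 between the fibroblast-like cells of the mural sets, 16 for the unnamed cluster, 19 for the chondrocyte- or perichondrial-like cells and 16 between the fibroblast-like clusters. That setting called 15.8% to 40.5% of all genes. At a 2-fold limit, endothelial-like against mural-like cells gave 11 calls, where 6.73% of all genes were called (4.24% at 4-fold). The chondrocyte- or perichondrial-like cells gave 5, where 6.28% of all genes were called (2.52% at 4-fold). Fibroblast-like clusters 8 and 10 gave 3, where 2.16% of all genes were called (0.602% at 4-fold). Between the fibroblast-like cells of the mural sets, 1 gene was called without thinning (Cdh13) and 1 without doublet-like wells (Itgb5), and leaving out Mural1 or Mural2 gave 1 to 2. The 0.848% of all genes called in that comparison belongs to the main setting alone. The share was 0.921% without thinning, 0.867% without doublet-like wells, 1.27% without Mural1 and 2.41% without Mural2. The alternatives for the chondrocyte- or perichondrial-like cells and for the fibroblast-like clusters were chosen after seeing the data.

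TMM and median-ratio scaling moved the median log2 difference of all genes by -0.186 and -0.196 for Cldn5-eGFP cells against Mural3, by -0.216 and -0.224 for endothelial-like and by -0.173 and -0.170 for mural-like against fibroblast-like cells, and by 0.128 and 0.149 for aerocyte-like against general capillary-like cells. The calls of the 49 genes in these 4 comparisons were the same under both. Where a left-out set leaves under 20 cells on a side, that alternative was not run: pericyte-like against smooth muscle-like cells without Mural2, the lymphatic-like cells without any EC set, the chondrocyte- or perichondrial-like cells without Mural1, fibroblast-like clusters 8 and 10 without Mural3, and the comparisons with Mural3 without it. No paired analysis was possible because the replicate numbers count single cells and no result comes from a test; classes were set side by side within the column sets instead. Counting error is small beside the differences between sets, which are single samples with no measure of the spread between animals.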
